A study of Homo sapiens with 18 samples.

Results

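The 10 genes described here encode enzymes and transporters of serine, one-carbon and arginine metabolism: PHGDH, PSAT1, PSPH, SHMT1, SHMT2, MTHFD1, MTHFD2, ASS1, SLC7A5 and SLC7A11. They were taken by symbol from 26485 gene rows, by a rule that uses no measured value but was set with earlier results of these data known, and all 10 were among the 12215 genes abundant enough to be tested. The libraries were bulk MARS-seq, a barcoded sequencing method that counts the 3′ ends of polyadenylated transcripts, of the human embryonic stem cell (hESC) line WIBR3 and of cortical organoids grown from it. The 18 libraries formed 6 groups of 3: hESC, organoids at Day 5 and organoids at Day 12, each as LIS1+/+ (wild type) and as LIS1+/- (heterozygous for LIS1, the gene PAFAH1B1, mutated in lissencephaly). Every group shared the WIBR3 background. The change made to LIS1 and the number of clones were not given, and genotype and clone cannot be told apart. Each stage also has its own pool number in the names of the deposited libraries, which leaves stage and pool confounded: they cannot be told apart. Nothing said that the 3 replicates of a group were separate cultures, and p-values then measure only the spread between these libraries, which may be technical.

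Serine is made from a glycolytic intermediate in a short chain of reactions: PHGDH oxidises 3-phosphoglycerate, PSAT1 adds the amino group and PSPH removes the phosphate. SHMT1 in the cytosol and SHMT2 in mitochondria then split serine into glycine and a one-carbon unit carried by folate, and MTHFD1 (cytosol) and MTHFD2 (mitochondria) interconvert the folate-bound units that feed purine and thymidylate synthesis. ASS1 joins citrulline and aspartate in the step that leads to arginine, SLC7A5 imports large neutral amino acids as a heterodimer with SLC3A2, and SLC7A11 exchanges cystine for glutamate. Several of these genes are known targets of ATF4, the transcription factor of the amino acid response, and rapidly dividing cells such as pluripotent stem cells are known to depend on serine and one-carbon flux.

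By the annotation, PHGDH lies on chromosome 1, MTHFD2 on 2, SLC7A11 on 4, PSPH on 7, PSAT1 and ASS1 on 9, SHMT2 on 12, MTHFD1 on 14, SLC7A5 on 16 and SHMT1 on 17. RefSeq start-site windows on GRCh38.p14, 250 bases before to 50 bases after the start, were matched for 7 of the 10 genes: PHGDH, PSAT1, SHMT1, MTHFD1, MTHFD2, ASS1 and SLC7A5. Both strands were searched for 3 motifs. The letters TGATGNAA, a C/EBP-ATF response element core, were found in the windows of 0 of the 7 genes and in 3.62% of 35116 windows of the same length. CACGTG, the E-box letters recognised by MYC and related factors, were found for MTHFD1, ASS1 and SLC7A5 and in 7.26% of all windows. For ASS1 the match was in the window of the later RefSeq start and not in that of the earlier. The shares here count windows, not genes, and the windows were not matched for GC. TGACNNNGC, the core of the antioxidant response element, was found for MTHFD2 and SLC7A5 and in 13.3% of all windows. SLC7A5 held both of the last motifs, and they did not overlap. The 250 bases before the start are printed for the 3 genes with CACGTG, since these include ASS1 and SLC7A5, which had the largest changes below; each is given 5′ to 3′ on the gene's own strand, with CACGTG in capitals.
MTHFD1, chr14:64388103-64388352, plus strand: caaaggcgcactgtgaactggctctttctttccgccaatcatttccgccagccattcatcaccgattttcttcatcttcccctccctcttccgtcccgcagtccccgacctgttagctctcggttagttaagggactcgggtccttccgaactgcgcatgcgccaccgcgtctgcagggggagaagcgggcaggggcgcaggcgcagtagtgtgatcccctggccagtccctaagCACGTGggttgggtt
ASS1, chr9:130444711-130444960, plus strand, the later of the RefSeq starts: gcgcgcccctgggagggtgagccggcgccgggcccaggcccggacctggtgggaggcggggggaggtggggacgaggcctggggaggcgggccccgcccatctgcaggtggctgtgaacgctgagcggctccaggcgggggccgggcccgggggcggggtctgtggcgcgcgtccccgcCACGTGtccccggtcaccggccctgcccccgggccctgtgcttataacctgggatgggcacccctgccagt
SLC7A5, chr16:87869508-87869757, minus strand: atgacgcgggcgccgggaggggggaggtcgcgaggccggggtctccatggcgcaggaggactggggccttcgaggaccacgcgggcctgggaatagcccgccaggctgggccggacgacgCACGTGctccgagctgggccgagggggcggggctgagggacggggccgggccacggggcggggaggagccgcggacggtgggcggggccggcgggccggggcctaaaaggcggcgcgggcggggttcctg
The first base of CACGTG lay at position -15 from the start for MTHFD1, -71 for ASS1 and -130 for SLC7A5. A match describes letters in the window and is not evidence that a factor binds there.

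Gene counts per library ran from 1425098 to 4501489. Levels below are in CPM, counts scaled to a common library size after trimmed-mean (TMM) normalisation, given as replicates 1, 2 and 3, and compare one gene between samples, not genes with each other. Differences are log2 fold changes ± standard error from edgeR's quasi-likelihood test in 1 fit of all 18 libraries, with p adjusted by Benjamini-Hochberg over the 12215 tested genes; a gene is said to have risen or fallen only at an adjusted p under 0.05. PAFAH1B1 was lower in every LIS1+/- library than in every LIS1+/+ library of its stage. Its log2 fold change was -0.67 ± 0.21 in hESC (adjusted p = 0.173), -0.58 ± 0.19 at Day 5 (adjusted p = 0.148) and -0.78 ± 0.20 at Day 12 (adjusted p = 0.0372). Of 10 neural progenitor markers 9 rose and 1 fell by Day 5 in each genotype. Their summed level did not follow these counts. It was 6139 to 6253 CPM in wild-type hESC and 5578 to 6611 CPM in wild-type Day 5 organoids. In LIS1+/- the sum was lower at Day 5, with 7841 to 8035 CPM in hESC and 5865 to 6660 CPM at Day 5. The pluripotency marker ZFP42 had no count in any library. Relative to the other libraries of their stage, 3 libraries gave lower values for genes of higher GC content. These were replicate 3 of LIS1+/+ hESC (slope -0.0193 log2 units per percent GC), replicate 2 of LIS1+/- at Day 5 (-0.0255) and replicate 2 of LIS1+/+ at Day 12 (-0.0294); the other 15 libraries had slopes of -0.00151 to 0.0127. GC over the last 500 bases was 58.2% for PHGDH, 53.2% for ASS1, 50.6% for SLC7A5, 50.2% for SHMT1, 49.8% for SHMT2 and 47.2% for PSPH. It was 36.0% for MTHFD1, 35.8% for MTHFD2, 32.8% for SLC7A11 and 30.2% for PSAT1. The median over tested genes was 42.6%. The share of reads that could not be placed uniquely averaged 52.9% in hESC LIS1+/+, 42.8% in hESC LIS1+/- and 27.3% to 32.5% in the organoid groups.

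The genes as a set took their largest share of the gene counts in hESC. They made up 0.501% ± 0.00351 of gene counts in hESC LIS1+/+ and 0.579% ± 0.0265 in hESC LIS1+/- (SD, n = 3 each). At Day 5 the shares were 0.244% ± 0.0125 and 0.237% ± 0.0188, and at Day 12 they were 0.204% ± 0.00770 and 0.176% ± 0.00872. In wild-type cells 9 of the 10 genes fell from hESC to Day 5 and 0 rose, where 21.7% of all tested genes fell, 22.9% rose and 44.6% changed in all. All 3 Day 5 libraries lay below all 3 hESC libraries for those 9 genes, as for 26.9% of tested genes, and above them for SHMT1, as for 29.5%. The median log2 fold change was -1.50 over the 10 genes and 0.06 over all tested genes. In LIS1+/- cells 9 fell and SHMT1 rose, against 21.4% of tested genes lower, 22.4% higher and 43.7% changed in all; the medians were -1.75 and 0.06. In bulk RNA, fewer cells of a type and less RNA per cell cannot be told apart, and pluripotency markers fell over the same step. In wild type 6 of 9 tested pluripotency markers fell and 1 rose, and their summed level was 6658 to 6907 CPM in hESC and 1885 to 1949 CPM at Day 5. SOX2 is on this list and on the neural progenitor list, so those lists are not separate. Surface ectoderm markers fell in 5 of 6 cases (2207 to 2261 CPM, then 442 to 528 CPM), with KRT5 and TP63 of that list without a count at both stages. The sum therefore came from KRT8, KRT18, KRT19, CDH1, EPCAM and GATA3. It does not show that surface ectoderm cells were present in hESC. Mesenchyme and neural crest markers fell in 5 of 8 (566 to 595 CPM, then 76.5 to 90.9 CPM). In LIS1+/- cells 8 of 9, 5 of 6 and 6 of 8 of these markers fell. The part of these markers in the falls of the 10 genes was not tested.

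**Figure D1:**
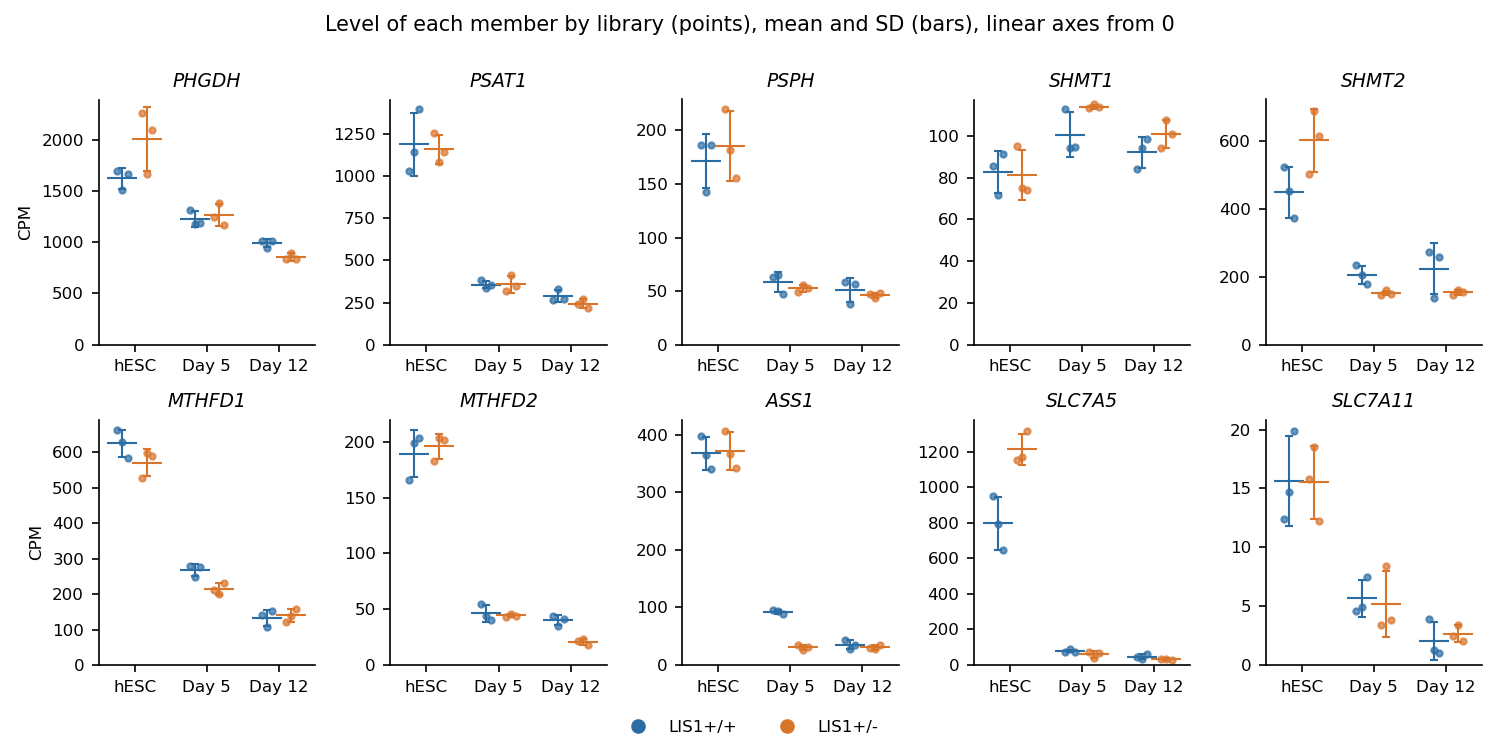
Level of each of the 10 genes in every library (points), with the group mean (horizontal bar) and SD (vertical bar, n = 3), on a linear CPM axis from 0, by stage and genotype. All genes but SHMT1 sit highest in hESC; ASS1 separates by genotype at Day 5 (wild type 87.7 to 95.0 CPM, LIS1+/- 26.3 to 34.0 CPM) and MTHFD2 at Day 12.

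Of the serine synthesis enzymes, PHGDH, which catalyses the first committed step, changed least from hESC to Day 5. Its level was 1698, 1509 and 1669 CPM in hESC LIS1+/+, 1315, 1179 and 1189 at Day 5 and 1014, 949 and 1012 at Day 12. The hESC libraries lay above all Day 5 libraries, and these above all Day 12 libraries. From hESC to Day 5 PHGDH fell by 0.41 on the log2 scale in wild-type cells (SE 0.13, adjusted p = 0.0153), a call lost without hESC LIS1+/+ replicate 1 (adjusted p = 0.0581) or Day 5 LIS1+/+ replicate 3 (adjusted p = 0.0538) and without a filter on low counts (adjusted p = 0.0679). In LIS1+/- cells the change was -0.67 ± 0.13 (adjusted p = 0.000216).

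PSAT1, the aminotransferase, read 1028, 1144 and 1396 CPM in wild-type hESC and 381, 334 and 356 CPM at Day 5. It fell 3.33-fold, a log2 change of -1.74 ± 0.15 (adjusted p = 7.62e-10), and by a like amount in LIS1+/- cells (-1.69 ± 0.15). PSPH, the phosphatase that releases free serine, read 186, 142 and 186 CPM in wild-type hESC and 63.4, 64.9 and 47.6 CPM at Day 5. Its groups did not overlap, and its log2 change was -1.55 ± 0.19 (adjusted p = 1.58e-07) in wild-type and -1.81 ± 0.19 in LIS1+/- cells.

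The 2 serine hydroxymethyltransferases moved in opposite directions in LIS1+/- cells, while in wild type SHMT2 fell and SHMT1 did not pass the test. Mitochondrial SHMT2 read 521, 452 and 372 CPM in wild-type hESC and 233, 204 and 179 CPM at Day 5, and in LIS1+/- it read 503, 687 and 612 and then 147, 160.1 and 150.4 CPM. All hESC libraries of either genotype lay above all Day 5 libraries. It fell by 1.13 (SE 0.19, adjusted p = 2.82e-05) in wild-type and by 1.98 (SE 0.20, adjusted p = 5.73e-09) in LIS1+/- cells on the log2 scale. Cytosolic SHMT1 read 95.3, 74.8 and 73.9 CPM in LIS1+/- hESC and 113, 115 and 114 CPM at Day 5. SHMT1 rose in LIS1+/- cells (0.49 ± 0.16, adjusted p = 0.0148), which was lost without hESC LIS1+/- replicate 2 (adjusted p = 0.0661) or replicate 3 (adjusted p = 0.0708). In wild-type cells the change was 0.28 ± 0.16 (adjusted p = 0.166). The 3′ end of SHMT1 overlaps that of SMCR8 on the other strand (group means of 39.3 to 81.4 CPM), and the use of strand in counting was not given, so SHMT1 values are uncertain to that extent. The same holds for 3′ ends over genes that read lower. These were NDUFA4L2 for SHMT2 (largest group mean 0.640 CPM), ZBTB25 for MTHFD1 (9.26 CPM), SLC4A5 for MTHFD2 (4.58 CPM) and SLC7A11-AS1 for SLC7A11 (0 counts). AC006030.1, which also overlaps MTHFD2, had no row.

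The folate enzymes both fell. MTHFD1, the cytosolic trifunctional enzyme, read 663, 629 and 585 CPM in wild-type hESC, 280.3, 249 and 275 CPM at Day 5 and 142, 108 and 151 CPM at Day 12. The stages did not overlap, and the log2 change was -1.22 ± 0.15 (adjusted p = 1.84e-07) over the first step, with a 95% interval of -1.31 to -0.69 for the change over the second (adjusted p = 2.50e-05). MTHFD2, the mitochondrial dehydrogenase and cyclohydrolase that is high in embryonic and dividing cells, read 166, 199 and 204 CPM in wild-type hESC and 54.5, 43.7 and 40.1 CPM at Day 5. It fell 4.10-fold (-2.04 ± 0.17, adjusted p = 2.34e-10) in wild-type and by a log2 change of -2.14 ± 0.17 in LIS1+/- cells.

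The amino acid transporter SLC7A5 had the largest fall of the 10 genes. Its level was 949, 792 and 648 CPM in wild-type hESC and 75.3, 87.4 and 74.0 CPM at Day 5. In LIS1+/- it was 1153, 1172 and 1316 CPM and then 72.5, 38.8 and 68.8 CPM. No Day 5 library reached the lowest hESC library, and the fall was 10.1-fold (-3.33 ± 0.22, adjusted p = 3.03e-12) in wild-type and 20.2-fold (-4.33 ± 0.23, adjusted p = 5.07e-14) in LIS1+/- cells. The difference between these falls had a 95% interval of -1.59 to -0.41 on the log2 scale and did not pass the test (adjusted p = 0.131). SLC7A11, the cystine transporter, was close to the detection limit: it read 12.4, 14.7 and 19.9 CPM in wild-type hESC, 4.58, 4.96 and 7.44 CPM at Day 5 and 3.88, 1.26 and 0.973 CPM at Day 12, where the 3 libraries held 10 counts in all. Its log2 change to Day 5 was -1.45 ± 0.40 (adjusted p = 0.00438) in wild-type and -1.57 ± 0.41 (adjusted p = 0.00291) in LIS1+/- cells.

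ASS1, the arginine synthesis enzyme, read 398, 365 and 341 CPM in wild-type hESC, 95.0, 93.5 and 87.7 CPM at Day 5 and 43.3, 27.1 and 34.6 CPM at Day 12. In LIS1+/- it read 407, 366 and 343 CPM, then 34.0, 26.3 and 31.3 CPM and then 29.7, 27.0 and 34.8 CPM. In wild-type cells ASS1 fell over both steps, the first with a 95% interval of -2.33 to -1.66 on the log2 scale (adjusted p = 1.65e-10) and the second at -1.40 ± 0.18 (adjusted p = 2.63e-06). In LIS1+/- cells it fell 12.2-fold by Day 5 (-3.60 ± 0.18, adjusted p = 1.06e-14), and its change from Day 5 to Day 12 had a 95% interval of -0.36 to 0.36 around 0.00 (adjusted p = 1.00). GENCODE 29 lists 11 ASS1 pseudogenes, none with a row in the count tables, and reads of copies could not be separated from ASS1 here.

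From Day 5 to Day 12 fewer of the genes changed. In wild-type organoids 4 of 10 fell (MTHFD1, ASS1, SLC7A5 and SLC7A11) and 0 rose, where 11.7% of tested genes fell, 12.7% rose and 24.5% changed in all; the median was -0.30 against 0.02 over all tested genes. The SLC7A5 fall (-0.77 ± 0.22, adjusted p = 0.0117) was lost without Day 5 LIS1+/+ replicate 2 (adjusted p = 0.0564) or Day 12 LIS1+/+ replicate 2 (adjusted p = 0.0772). That of SLC7A11 (-1.52 ± 0.54, adjusted p = 0.0401) was lost without replicate 2 or 3 of either wild-type group, with adjusted p from 0.0574 to 0.172, when only the groups compared were fitted (adjusted p = 0.0871) and without the 3 libraries with a GC slope (adjusted p = 0.106). In LIS1+/- organoids 5 of 10 fell and 0 rose, where 7.64% of tested genes fell, 8.90% rose and 16.5% changed in all, with a median of -0.56 against -0.01. These were PHGDH (-0.56 ± 0.13, adjusted p = 0.00430), PSAT1 (-0.56 ± 0.15, adjusted p = 0.0112), MTHFD1 (-0.61 ± 0.15, adjusted p = 0.00506), MTHFD2 (-1.11 ± 0.18, adjusted p = 0.000104) and SLC7A5 (-0.87 ± 0.22, adjusted p = 0.00808). PSAT1 lost its call without Day 5 LIS1+/- replicate 2 (adjusted p = 0.0542), and SLC7A5 without Day 5 LIS1+/- replicate 1 (adjusted p = 0.0514). Both also lost it without Day 12 LIS1+/- replicate 3, with adjusted p of 0.0676 and 0.0534. SHMT1, SHMT2 and PSPH passed the test in neither genotype over this step. Over this step in wild type 6 of 9 tested pluripotency markers fell, 7 of 8 markers of mesenchyme and neural crest rose (summed level 76.5 to 90.9 CPM at Day 5, 158 to 1097 CPM at Day 12) and 3 of 4 of liver, yolk sac and endoderm rose (2.48 to 15.6 CPM, then 22.6 to 516 CPM). In LIS1+/- 6 of 9 pluripotency markers fell, and of the 8 mesenchyme markers 4 rose and 1 fell (32.9 to 43.7 CPM, then 102 to 141 CPM). Of the 4 liver, yolk sac and endoderm markers 0 rose and 0 fell there. Of 10 neural progenitor markers 4 rose and 2 fell in wild type, and 3 rose and 4 fell in LIS1+/-. Among 6 tested neuron markers 3 rose and 0 fell in each genotype. The part of these markers in the changes of the 10 genes was not tested. Each comparison over the second step shares its Day 5 libraries with the first, so the values of the 2 steps are not independent.

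**Figure D2:**
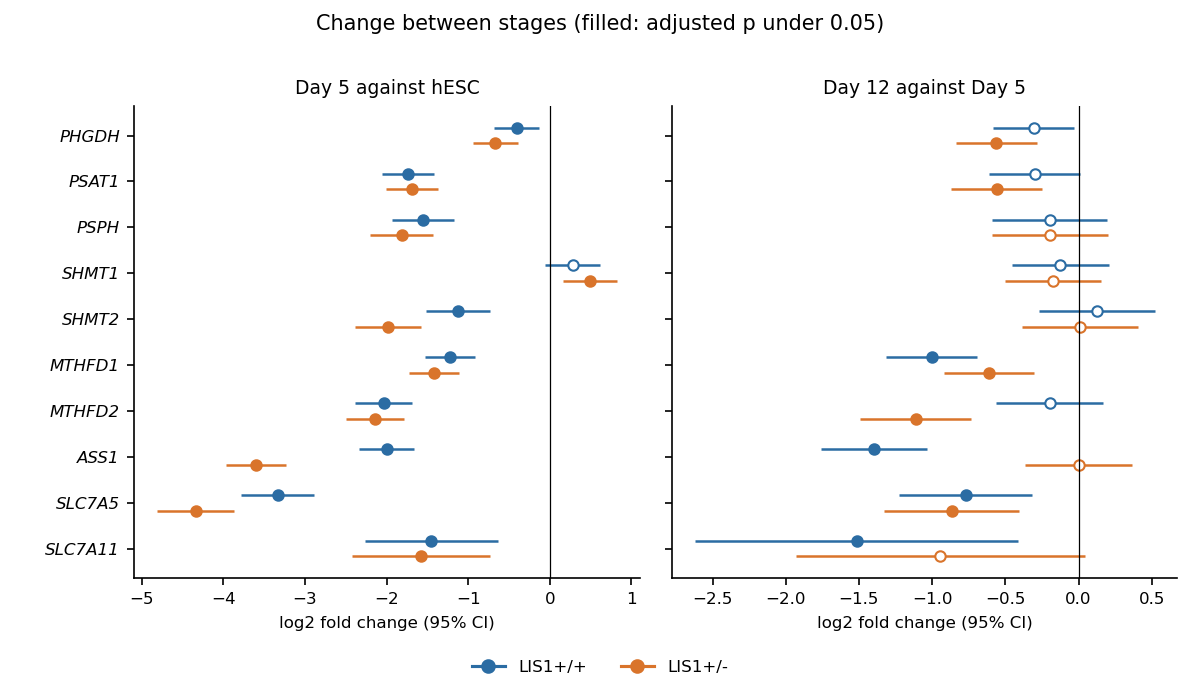
Log2 fold change of each gene between consecutive stages with its 95% confidence interval, in LIS1+/+ and LIS1+/- cells; filled points have an adjusted p under 0.05. SLC7A5 lies furthest left from hESC to Day 5 (-3.33 and -4.33), and ASS1 moved from Day 5 to Day 12 in wild-type organoids (-1.40) and was at 0.00 in LIS1+/-.

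The genotypes were then compared within each stage. In hESC 0 of the 10 genes passed the edgeR test, where 0.491% of tested genes did; 3 had an unadjusted p under 0.05, as did 11.2% of all tested genes, and DESeq2 called 0. SLC7A5 was the gene whose genotypes did not overlap, with the LIS1+/- libraries at 1153, 1172 and 1316 CPM all above the wild-type libraries at 949, 792 and 648 CPM, as 10.6% of tested genes were. Its log2 fold change was 0.61 ± 0.20 (adjusted p = 0.212), which passed only without a filter on low counts (adjusted p = 0.0384). SHMT2 had 0.42 ± 0.19 (adjusted p = 0.401) and PHGDH 0.31 ± 0.13 (adjusted p = 0.384).

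At Day 5 ASS1 fell in LIS1+/- organoids and the other 9 genes did not pass, where 1.95% of tested genes changed and 1.28% were lower. The LIS1+/- libraries held 34.0, 26.3 and 31.3 CPM (30.5 ± 3.90 CPM, SD, n = 3) and the wild-type libraries 95.0, 93.5 and 87.7 CPM (92.1 ± 3.86 CPM, SD, n = 3). Every LIS1+/- value was below every wild-type value, by 3.01-fold on average (-1.59 ± 0.17, adjusted p = 1.76e-06), and ASS1 ranked 6 of 12215 tested genes by p. In hESC the same difference was 0.01 ± 0.16 and at Day 12 it was -0.19 ± 0.19. The genotype difference of ASS1 at Day 5 differed from that in hESC by -1.60 ± 0.23 (adjusted p = 0.000524), where 0.573% of tested genes passed. From Day 5 to Day 12 it differed by 1.40 ± 0.25 (adjusted p = 0.00431), where 1.06% passed. Averaged over the stages ASS1 fell by 0.59 on the log2 scale (SE 0.10, adjusted p = 0.000845), the 1 gene of 10 to pass, where 2.06% of tested genes changed and 1.32% were lower. These ASS1 calls held when any single library was left out.

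Pluripotency markers differed between the genotypes at Day 5 too. Of 9 tested, 4 fell in LIS1+/- and 0 rose, and their summed level was 1147 to 1479 CPM in LIS1+/- against 1885 to 1949 CPM in wild type, with NANOG, ZFP42 and UTF1 at 0 in LIS1+/- and ZFP42 at 0 in wild type. POU5F1, the core pluripotency factor, was at 8.60, 7.31 and 5.85 CPM in LIS1+/- and 32.6, 32.7 and 37.4 CPM in wild type. Markers of mesenchyme and neural crest summed to 32.9 to 43.7 CPM in LIS1+/- and 76.5 to 90.9 CPM in wild type (1 of 8 tested fell), and those of surface ectoderm to 224 to 320.3 CPM and 442 to 528 CPM (2 of 6 fell). Of these lists, DCN and KRT5 had no count in either genotype, and LUM, TFAP2B and TP63 had none in wild type alone. The part of any of these markers in the ASS1 difference was not tested. Over all 18 libraries the levels most like that of ASS1 were those of SCGB3A2 (Pearson r = 0.989) and L1TD1 (r = 0.986), a description over libraries that share the same 3 stages. Among the other genes at Day 5, SHMT2 (-0.43 ± 0.19), MTHFD1 (-0.32 ± 0.15) and SLC7A5 (-0.39 ± 0.21) also had every LIS1+/- library below every wild-type library, as 9.45% of tested genes did, and did not pass the test (adjusted p from 0.373 to 0.506). SHMT1 had every LIS1+/- library above every wild-type library by a narrow margin (0.18 ± 0.16, adjusted p = 0.738), as 8.06% of tested genes did.

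At Day 12 MTHFD2 fell in LIS1+/- organoids and the other 9 genes did not pass, where 1.40% of tested genes changed and 1.06% were lower. It read 21.0, 23.0 and 17.7 CPM in LIS1+/- (20.6 ± 2.72 CPM, SD, n = 3) and 43.9, 35.2 and 41.4 CPM in wild type (40.2 ± 4.47 CPM, SD, n = 3). The genotypes did not overlap, as they did not, with LIS1+/- lower, for PHGDH (-0.21 ± 0.13, adjusted p = 0.524) and 8.43% of all tested genes. The MTHFD2 level was 1.96-fold lower in LIS1+/- (-0.97 ± 0.19, adjusted p = 0.00642). The call was lost without Day 12 LIS1+/- replicate 3 (-0.85, adjusted p = 0.0779) and when only the Day 12 groups were fitted (-0.99, adjusted p = 0.103). The MTHFD2 genotype difference was -0.05 ± 0.17 at Day 5, and its change from Day 5 to Day 12 did not pass (-0.91 ± 0.26, adjusted p = 0.0924). From hESC to Day 12 the genotype difference of 0 of the 10 genes passed a test of its change, where 0.377% of tested genes did; 4 of the 10 had an unadjusted p under 0.05 by edgeR, as did 8.11% of tested genes, and DESeq2 called 1. MTHFD2 came closest (-1.02 ± 0.25, adjusted p = 0.0708). Without Day 12 LIS1+/+ replicate 2, MTHFD2 (-1.10, adjusted p = 0.0282), SHMT2 (-1.21, adjusted p = 0.00424) and SLC7A5 (-1.30, adjusted p = 0.0183) passed. The count over all genes moved too, from 46 with every library to between 11 and 138 with 1 library left out.

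SHMT2 at Day 12 turned on 1 library. It read 274, 138 and 258 CPM in wild type and 147, 160.2 and 154 CPM in LIS1+/-, so that replicates 1 and 3 of wild type lay above all LIS1+/- libraries and replicate 2 below them. The log2 fold change was -0.54 ± 0.19 (adjusted p = 0.201) with all libraries and -0.79 (adjusted p = 0.00701) without wild-type replicate 2, one of the 3 libraries with a GC slope. Without all 3 of those libraries SHMT2 (-0.79, adjusted p = 0.00166) and SLC7A5 (-0.70, adjusted p = 0.0269) passed beside MTHFD2. The count over all genes at Day 12 also moved, from 171 with every library to between 57 and 332 with 1 library left out. Markers of other cell types also differed at Day 12: of 8 tested markers of mesenchyme and neural crest 6 fell in LIS1+/- and 0 rose, with a summed level of 1097, 158 and 461 CPM in wild-type replicates 1, 2 and 3 and of 102 to 141 CPM in LIS1+/-, where FOXD3 had no count. Liver, yolk sac and endoderm markers summed to 516, 22.6 and 88.1 CPM in wild type and to 9.40 to 22.3 CPM in LIS1+/-, with FOXA2, SOX17 and GATA4 at 0 in the latter; 2 of 4 tested fell. Surface ectoderm markers summed to 320.5, 105 and 203 CPM in wild type and 184 to 208 CPM in LIS1+/-, with KRT5 and TP63 at 0 in both genotypes and CDH1 at 0 in LIS1+/-; 3 of 6 tested fell. Of 9 tested pluripotency markers 2 fell in LIS1+/- and 0 rose. That list summed to 618 to 812 CPM in wild type and 607 to 709 CPM in LIS1+/-. NANOG and ZFP42 had no count in either genotype, and TDGF1 and UTF1 had none in LIS1+/- alone. Over all tested genes 1.06% were lower in LIS1+/- at Day 12. Wild-type replicate 2, whose mesenchyme sum was nearest to LIS1+/-, read 35.2 CPM for MTHFD2 and 138 CPM for SHMT2. It is 1 library and also has a GC slope, so cell content and GC cannot be told apart in it. The part of these markers in either difference was not tested.

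**Figure D3:**
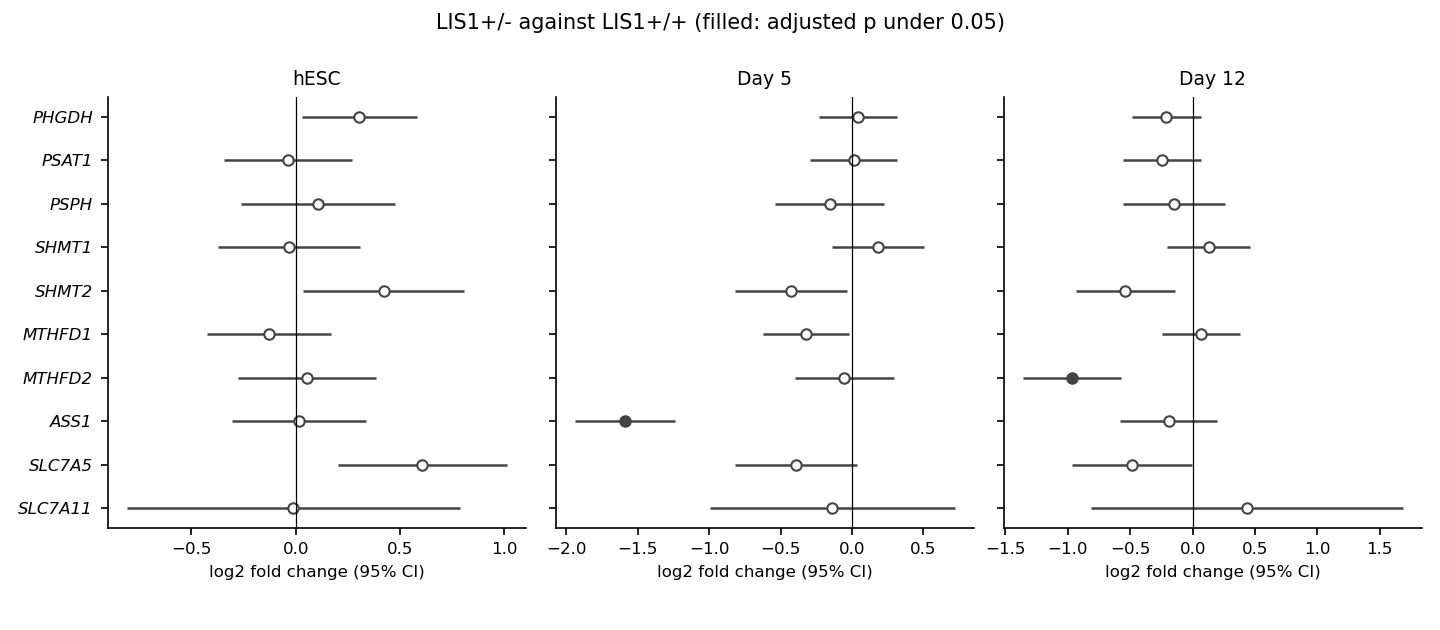
Log2 fold change of LIS1+/- against LIS1+/+ for each gene with its 95% confidence interval, in hESC, at Day 5 and at Day 12 (the axis range differs between panels); filled points have an adjusted p under 0.05. ASS1 at Day 5 (-1.59) and MTHFD2 at Day 12 (-0.97) are the filled points.

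The related genes outside the 10 were taken from lists of 153 genes, 129 of them tested. From hESC to Day 5 in wild-type cells 64 fell and 26 rose, with a median log2 fold change of -0.58, where 21.7% of all tested genes fell and 22.9% rose, with a median of 0.06. The ATF4 and amino acid response genes moved most to one side, with 18 of 23 lower and 0 higher (median -1.21). They included ASNS, asparagine synthetase (-2.65), TRIB3, an ATF4-induced pseudokinase (-2.96), and GPT2, a mitochondrial alanine transaminase (-1.61). Of the purine synthesis genes, which use the one-carbon units, 8 of 12 fell and 1 rose (median -1.03), among them GART (-1.50), ADSL (-1.49) and PFAS (-1.33). In the amino acid transporter list 11 of 23 fell and 5 rose, with SLC3A2, the partner of SLC7A5, going from 1369, 1552 and 1346 to 436, 422 and 457 CPM (-1.70 ± 0.14, adjusted p = 1.71e-10). SLC3A2 was also among the genes most like SLC7A5 over the 18 libraries (Pearson r = 0.992).

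The remaining lists were mixed, and are read against the same 21.7% lower and 22.9% higher of all tested genes. Folate cycle and thymidylate genes had 6 of 16 lower and 6 higher. The falls included MTHFD1L, the mitochondrial formyl-folate synthetase (-1.40), SLC25A32, the mitochondrial folate carrier (-1.47), and ALDH1L2 (-4.39). ALDH1L2 went from a mean of 12.2 CPM to 0.526 CPM, close to the detection limit, so the size of its fall is uncertain. In serine and glycine metabolism 3 of 9 fell and 4 rose, with PIPOX, which oxidises pipecolate and sarcosine, lower (-2.40) and SDSL, a serine dehydratase-like enzyme, higher (2.97). Among arginine, urea cycle, proline and polyamine genes 10 of 24 fell and 5 rose. NOS2, which makes nitric oxide from arginine, went from 1.90, 6.68 and 2.48 CPM in wild-type hESC to 1104, 843 and 1159.8 CPM at Day 5 (8.19 ± 0.37, adjusted p = 4.33e-14), the opposite direction to ASS1. Methionine cycle genes had 3 of 7 lower and 1 higher, and glutathione genes 5 of 15 lower and 4 higher.

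**Figure D4:**
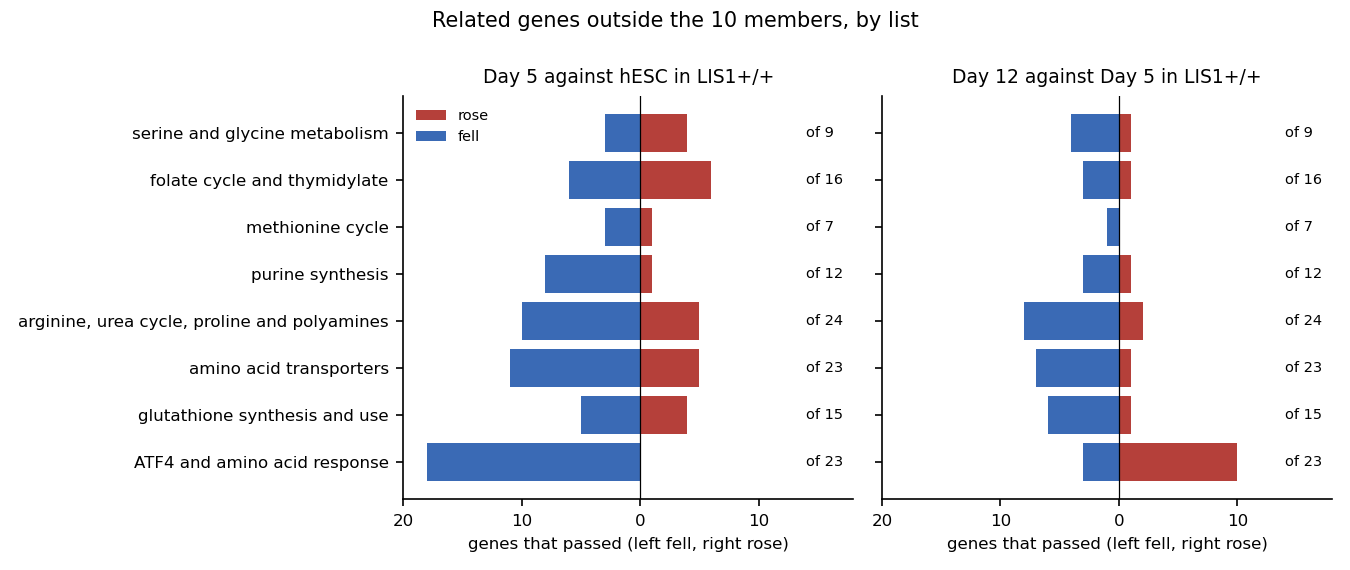
Number of tested genes in each list that fell (left of 0) or rose (right of 0) in wild-type cells over the first step (hESC to Day 5) and the second (Day 5 to Day 12), with the number tested beside each bar. The ATF4 and amino acid response list has 18 of 23 lower in the first step and 10 of 23 higher in the second.

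From Day 5 to Day 12 the ATF4 list went the other way in wild-type organoids, with 10 of 23 higher and 3 lower, while over all lists 35 of 129 fell and 17 rose and over all tested genes 11.7% fell and 12.7% rose. The rises were led by DDIT4, an inhibitor of mTORC1 (2.77 ± 0.20), TRIB3 (2.56 ± 0.28) and DDIT3, the stress factor CHOP (1.89 ± 0.23). Of the 10 genes, MTHFD1, ASS1 (-1.40), SLC7A5 (-0.77) and SLC7A11 (-1.52) fell over that step in wild type. The calls of SLC7A5 and SLC7A11 were lost in some alternatives, as given above. PHGDH, PSAT1, PSPH, SHMT2 and MTHFD2 did not pass the test, with log2 changes of -0.31, -0.30, -0.20, 0.13 and -0.20. SHMT1 did not pass either. In LIS1+/- organoids 3 of the 23 ATF4 list genes rose and 5 fell, where 8.90% of tested genes rose and 7.64% fell.

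Between the genotypes 0 of 129 list genes passed edgeR's test in hESC, with 26 at an unadjusted p under 0.05, where 0.491% of all tested genes passed and 11.2% had such a p. At Day 5 there were 5 lower and 1 higher in LIS1+/-, where 1.95% of tested genes changed and 1.28% were lower. NOS2 read 318, 553 and 436 CPM in LIS1+/- against 1104, 843 and 1159.8 CPM in wild type (-1.25 ± 0.23, adjusted p = 0.00345). PIPOX read 1.12, 1.83 and 2.34 against 10.1, 10.1 and 8.34 CPM (-2.37 ± 0.36, adjusted p = 0.000279), so its LIS1+/- level was close to the detection limit. DDIT4 read 51.6, 38.0 and 62.6 against 107, 94.2 and 118 CPM (-1.06 ± 0.20, adjusted p = 0.00293). All 3 had every LIS1+/- library below every wild-type library, as 9.45% of tested genes did. They were named for the smallest adjusted p of their lists here, so this separation is no further support. The 3 calls held when any single library was left out. SLC38A5 (-1.39), SLC7A8 (-0.62) and NQO1 (0.78) also passed, and lost their calls without 4, 5 and 5 of the 6 Day 5 libraries, each left out alone: SLC38A5 without LIS1+/+ replicate 1 or 2 or LIS1+/- replicate 1 or 2, SLC7A8 without any but LIS1+/- replicate 1, and NQO1 without any but LIS1+/- replicate 3. Their adjusted p reached 0.103, 0.221 and 0.136 over the alternatives run.

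At Day 12 there were again 5 lower and 1 higher of 129 in LIS1+/-, where 1.40% of tested genes changed and 1.06% were lower. MTHFD1L, which acts after MTHFD2 in the mitochondrial branch, read 49.5, 62.0 and 56.7 CPM in LIS1+/- against 107, 86.2 and 94.4 CPM in wild type (-0.76 ± 0.16, adjusted p = 0.00866). NOS2 read 87.2, 51.8 and 57.6 against 244, 177 and 299 CPM (-1.90 ± 0.25, adjusted p = 0.000193) and held without any single library. TRIB3 (-1.37), DDIT3 (-1.07) and DDIT4 (-0.76) were lower and GSS, glutathione synthetase, higher (0.74). TRIB3 lost its call without LIS1+/- replicate 3. MTHFD1L and DDIT3 lost it without LIS1+/+ replicate 1 or LIS1+/- replicate 1 or 3, DDIT4 without any Day 12 library but LIS1+/+ replicate 2, and GSS without any but LIS1+/+ replicate 3. Over the alternatives run, the adjusted p reached 0.0688 for TRIB3, 0.105 for MTHFD1L, 0.117 for DDIT3, 0.308 for DDIT4 and 0.174 for GSS.

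**Figure D5:**
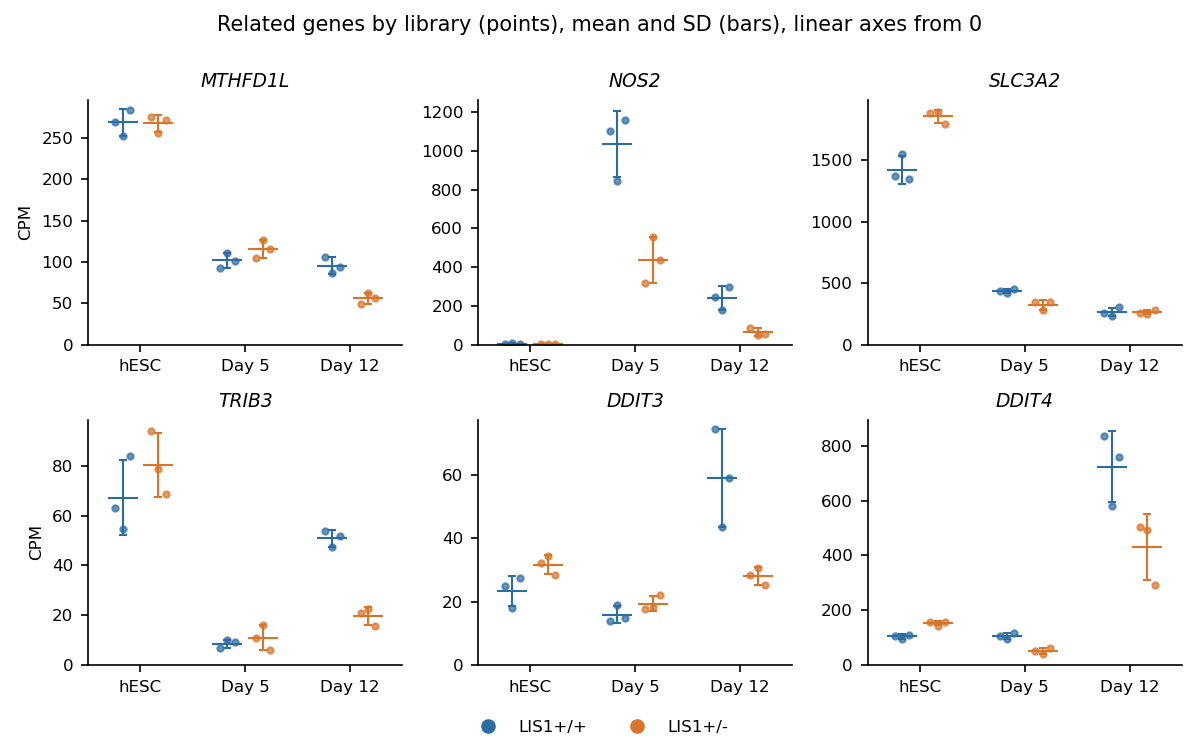
Levels of 6 related genes in every library (points), with group mean and SD (n = 3), on a linear CPM axis from 0. NOS2 is near 0 in hESC and lower in LIS1+/- at both organoid stages; MTHFD1L, TRIB3 and DDIT3 are lower in LIS1+/- at Day 12.

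Across the 18 libraries 9 of the 10 genes moved in the same sense and SHMT1 against them. As a description, PSAT1 and MTHFD2 had a Pearson r of 0.977 of their log2 levels, SLC7A5 and PSPH of 0.971, and SHMT1 and SHMT2 of -0.765; the libraries share their 3 stages, which differ widely. The genes outside the set most like each were GARS and YBX3 for PHGDH, GPR176 and PNP for PSAT1, RAB34 and YWHAH for PSPH, CEBPA-AS1 and EXOC7 for SHMT1, CHAC1 and INHBE for SHMT2, DAZAP1 and C1QBP for MTHFD1, FHL2 and ARPC2 for MTHFD2, and MYL9 and SLC3A2 for SLC7A5, with r from 0.872 for EXOC7 to 0.993 for MYL9. SLC7A11 was too low for this description. Of 27 pseudogenes of the 10 genes in GENCODE 29, 3 had a row in the count tables: SLC7A5P1 and MTHFD2P1 had 0 counts in every library, and SLC7A5P2 had group means of 3.06 to 11.6 CPM.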

How the data were processed

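Gene counts per library, as deposited by the authors, were whole numbers for 26485 gene rows in 18 libraries of WIBR3 hESC and organoids. The submitters' processing notes name cutadapt, STAR and DESeq2 without versions, and the builds GRCh37 and hg38 without a role; the counter, strand setting and collapsing of molecular identifiers were not given in the sources used here. Each table closes with 5 rows that name no gene, holding 49.2% to 70.6% of its reads, which were left out.

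Counts were tested with edgeR 4.0.16 (R 4.3.3, limma 3.58.1): filterByExpr, TMM scaling, 1 robust quasi-likelihood fit of 6 group means with 12 residual degrees of freedom, and Benjamini-Hochberg adjustment over 12215 genes, two-sided, with a threshold of 0.05. The contrasts were genotype within and over stages, consecutive stages within genotypes, and the differences of genotype effects. The scripts were tested on simulated counts. Depth was 1425098 to 4501489 gene counts per library; replicates differed by more than counting error. Alternatives were DESeq2's size factors, DESeq2 1.42.0's Wald test, no low-count filter, a replicate block, a fit of only the groups compared, leaving out the 3 libraries with a GC slope, and leaving out each library. The GC slope used genes of at least 10 CPM and their last 500 bases in GENCODE 29; 95.5% of tested genes had a value. Replicates with the same number in 1 stage had correlated deviations of -0.134 to 0.104, above 0.1 in 1 of 9 pairs, so numbers were not used as pairs.

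Genes named were the 10 in every comparison, PAFAH1B1, up to 3 called genes of smallest adjusted p per list and comparison, copies with a row, and, for each of the 10 with a mean of at least 10 CPM, the 2 genes with the highest correlation of log2(CPM + 1). The members and lists were chosen with earlier results of these data known. POU5F1 and the marker genes at 0 were named after their values were seen. Sequences are from RefSeq, GRCh38.p14. Figures used Matplotlib 3.10.9.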

Additional observations from a re-analysis of the deposited data

Results flagged for a closer look

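These results stood out because the genotype difference, LIS1+/- against LIS1+/+, itself differed between stages by edgeR's test. Groups of 3 libraries are too small for a check of single outlying samples. ASS1 had a change of the genotype difference of -1.60 from hESC to Day 5 and of 1.40 from Day 5 to Day 12 on the log2 scale, and both passed without any single library and in every alternative run.

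Of the related genes, PIPOX (-2.27, adjusted p = 0.0111) and DDIT4 (-1.61, adjusted p = 0.00397) differed from hESC to Day 5 and passed in all 18 alternatives. SLC3A2 also passed over that step (-0.82, adjusted p = 0.0414), but of the 12 libraries left out singly it kept the call only without Day 5 LIS1+/- replicate 1, and its adjusted p reached 0.135.

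From Day 5 to Day 12 there were 4 more. MTHFD1L (-0.94, adjusted p = 0.0253) kept its call without Day 5 LIS1+/+ replicate 2, Day 5 LIS1+/- replicate 1, Day 12 LIS1+/+ replicate 2 or 3 or Day 12 LIS1+/- replicate 2, and lost it without any of the other 7 libraries. SLC7A8 (0.95, adjusted p = 0.0439) kept it without Day 5 LIS1+/- replicate 1, Day 12 LIS1+/+ replicate 2 or 3 or Day 12 LIS1+/- replicate 2, and lost it without any of the other 8. TRIB3 (-1.70, adjusted p = 0.0317) kept it without Day 5 LIS1+/- replicate 3 or the same 3 Day 12 libraries, and lost it without any of the other 8. DDIT3 (-1.35, adjusted p = 0.0405) kept it without Day 5 LIS1+/- replicate 1 or Day 12 LIS1+/+ replicate 2, and lost it without any of the other 10. Over the alternatives run, the adjusted p reached 0.0890 for MTHFD1L, 0.147 for SLC7A8, 0.156 for TRIB3 and 0.138 for DDIT3.

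From hESC to Day 12 the genotype difference changed for DDIT4 (-1.31, adjusted p = 0.0257), TRIB3 (-1.63, adjusted p = 0.0406) and DDIT3 (-1.49, adjusted p = 0.0432). DDIT4 kept its call without hESC LIS1+/- replicate 2, Day 12 LIS1+/+ replicate 2 or Day 12 LIS1+/- replicate 1 or 2, TRIB3 without hESC LIS1+/+ replicate 3 or Day 12 LIS1+/+ replicate 2, and DDIT3 without Day 12 LIS1+/+ replicate 2; they lost it without any of the other 8, 10 and 11 libraries, and their adjusted p reached 0.102, 0.149 and 0.148. The comparisons share libraries and are not independent.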

How the results depend on the processing

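Of 33 member results past the threshold, 26 stayed past it in every alternative run and 7 lost it in at least 1; none reversed. Of 111 results of related genes, 84 stayed and 27 lost it. Without a filter on low counts the number of members called was 1 for genotype in hESC, 3 for the change of the genotype difference from hESC to Day 5 and 2 for that from hESC to Day 12. The DESeq2 Wald test gave 2 for genotype averaged over the stages, 2 for the change from Day 5 to Day 12 and 1 for that from hESC to Day 12. Without the 3 libraries with a GC slope, 3 were called for genotype at Day 12, 2 averaged over the stages and 3 for the change from hESC to Day 12. A fit of only the groups compared called 0 at Day 12. Leaving out 1 library gave 0 to 2 for genotype at Day 12 (2 without LIS1+/+ replicate 2, 0 without LIS1+/- replicate 3), 2 to 4 from Day 5 to Day 12 in LIS1+/+ (2 without replicate 2 of either stage), 3 to 5 in LIS1+/- (3 without Day 12 replicate 3) and 0 to 3 for the change from hESC to Day 12 (3 without Day 12 LIS1+/+ replicate 2).

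The replicate block, fitted although the numbers did not pair the libraries, left the number of members called at 1 for genotype at Day 5 and 1 at Day 12, and at 0 in hESC, and changed no member's call; among related genes it ended those of SLC7A8 at Day 5 (adjusted p = 0.0525) and of DDIT3 for the change from Day 5 (adjusted p = 0.0585) or hESC (adjusted p = 0.0624) to Day 12.

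Counts over all genes moved more. For genotype in hESC 60 genes became 206 without the filter, 131 by DESeq2 and 153 in the fit of only those groups, and 21 to 41 without 1 library. At Day 5, 238 became 412 without the filter and 125 to 186 without 1 library. At Day 12, 171 became 483 without the filter, 294 by DESeq2, 381 without the 3 libraries, 41 in the fit of only those groups and 57 to 332 without 1 library. Averaged, 252 became 536, 416 and 418 under the first 3 of these settings and 183 to 439 without 1 library. Changes of the genotype difference gave 70 from hESC to Day 5 (281 without the filter, 140 by DESeq2, 117 with only those groups, 31 to 79 without 1 library), 129 from Day 5 to Day 12 (363, 205, 77 and 59 to 170) and 46 from hESC to Day 12 (172 without the filter, 120 by DESeq2, 158 without the 3 libraries, 11 to 138 without 1 library). From Day 5 to Day 12 in LIS1+/-, 2020 became 1317 to 1921 without 1 library. The cause of these shifts was not tested. The low counts of SLC7A11 limit what could be seen for it.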
